A study of Drosophila melanogaster with 2 samples.

Results

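Binding of the zinc finger protein Jim between genes was described here through 238 strong intergenic regions off the X chromosome, chosen by pooled signal and position from 30000 regions of a chromatin immunoprecipitation sequencing (ChIP-seq) experiment in Drosophila melanogaster. A region was kept when it was among the first 3000 by pooled signal, did not lie on the X, had its summit outside every annotated gene body and had it more than 500 bp from every annotated transcript start. Such regions made up 238 (9.50%, 95% interval 8.38 to 10.7%) of the 2505 regions off the X among the first 3000. The others were 855 regions inside genes, more than 500 bp from a start, and 1412 promoter regions within 500 bp of a start; 5172 intergenic regions off the X below rank 3000 are called weaker intergenic regions. The 30000 regions hold background besides peaks, so a weaker intergenic region is not taken here as a site of binding. The study held 1 group of 2 biological replicates, numbered 1 and 3, and no second condition. Both came from a transgenic line, labelled also as an insertion that targets jim, that stably expressed Jim with GFP fused to its C-terminal end, and an antibody against GFP was used for the precipitation. Whole larvae of the third instar, at the wandering stage, were used with males and females pooled and age unknown. Chromatin was sheared by sonication, with a labelled size range of 175 to 275 bp in replicate 1 and 200 to 325 bp in replicate 3. Signal in whole larvae is a mixture over all cell types, so many cells with little bound protein and few cells with much cannot be told apart, and how far the tagged protein stands for the native one was not tested.

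Jim is a nuclear protein with C2H2 zinc fingers, a fold with which many transcription factors contact DNA. In ChIP-seq, DNA bound by the tagged protein is enriched and sequenced, and a region is a stretch where the reads pile up, with the summit at its highest point. Sequence between genes holds many of the enhancers of Drosophila developmental genes, which can act on promoters over long distances and past nearer genes, so the nearest gene is a position and not a target. The authors' signal value of a region has no unit that can be compared with other experiments, and it was used only to describe and rank regions; values of different lists are given side by side and were not compared in size.

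The sequence around the summits of the 8 strongest such regions on the arms 2L, 3L and 3R is printed first, since runs of A and GA repeats, described below, were found in several of them. Each is the forward strand of the dm6 build from 50 bases before to 50 bases after the summit, from the RefSeq genome. Capitals mark runs of at least 6 A or 6 T and matches to GAGAG or its reverse complement CTCTC.
Beside lncRNA:CR45437, chr3L:16195618-16195718, signal 358.2: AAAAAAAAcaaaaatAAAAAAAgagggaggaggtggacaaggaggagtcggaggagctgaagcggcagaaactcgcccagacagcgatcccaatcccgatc
Beside CG43389, chr3L:3246559-3246659, signal 301.9: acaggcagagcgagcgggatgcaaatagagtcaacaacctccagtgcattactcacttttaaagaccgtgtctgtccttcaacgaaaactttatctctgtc
Between CG42828 and CG4393, chr3R:23374462-23374562, signal 243.7: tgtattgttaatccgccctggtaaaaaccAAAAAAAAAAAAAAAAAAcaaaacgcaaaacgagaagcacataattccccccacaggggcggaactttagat
Between hry and SrpRbeta, chr3L:8702654-8702754, signal 218.7: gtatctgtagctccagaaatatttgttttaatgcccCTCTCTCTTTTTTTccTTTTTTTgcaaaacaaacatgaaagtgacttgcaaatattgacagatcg
Beside dac, chr2L:16486457-16486557, signal 176.2: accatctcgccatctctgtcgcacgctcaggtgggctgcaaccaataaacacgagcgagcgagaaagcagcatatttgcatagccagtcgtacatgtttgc
Between dikar and velo, chr3L:6743645-6743745, signal 167.6: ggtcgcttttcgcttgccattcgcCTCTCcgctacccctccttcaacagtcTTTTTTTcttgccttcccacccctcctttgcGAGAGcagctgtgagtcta
Between CG5290 and Eip75B, chr3L:17922864-17922964, signal 167.0: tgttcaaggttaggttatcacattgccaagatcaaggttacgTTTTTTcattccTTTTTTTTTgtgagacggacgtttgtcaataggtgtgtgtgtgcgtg
Beside CG5953, chr2L:16533440-16533540, signal 165.6: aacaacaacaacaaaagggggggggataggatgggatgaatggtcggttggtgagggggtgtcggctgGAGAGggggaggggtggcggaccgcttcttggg
Of these 8 sequences, 5 held a run of at least 6 A or T, 3 held GAGAG on either strand, and 2, those beside CG43389 and dac, held neither. The run between CG42828 and CG4393 was 18 bases long. The matches are letters in a window and were not tested as binding sites.

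Signal and position served as the selection rule, so the levels are descriptions. Pooled signal of the 238 regions had a lowest value of 47.3, a median of 60.9 and a highest value of 358.2, against medians of 63.3 for strong regions inside genes, 66.1 for promoter regions and 24.9 for weaker intergenic regions. The 3 regions just inside the rank limit had signals of 47.50 (between mah and tnc), 47.46 (beside ptc) and 47.33 (beside CG10428), and the 3 intergenic regions just outside it had 47.18, 47.10 and 47.09. The limit therefore cut through a range where neighbouring regions differed by little.

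The strongest region lay on 3L at 16195575 to 16195697, 1551 bp from the start of the long noncoding RNA gene lncRNA:CR45437 and with the protein-coding genes CG33795 and CG33687 to its sides. Its signal was 358.2 in the pooled list, 168.3 (rank 11) in replicate 1 and 169.6 (rank 11) in replicate 3. The next, on 3L at 3246546 to 3246666 and 1406 bp from the start of CG43389, had 301.9 in the pooled list, 171.3 (rank 10) in replicate 1 and 126.9 (rank 38) in replicate 3. Both stood near the top of both replicates.

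The next regions are given with the genes beside them. A region on 2R at 22243012 to 22243114 lay 918 bp from the start of dve, a homeodomain factor gene, and had signals of 267.4 pooled, 115.0 in replicate 1 and 160.4 in replicate 3. One on 2R at 12955849 to 12956108, between CG13321 and the Polycomb group gene Psc and 10018 bp from the body of Psc, had 252.5 pooled, 140.2 in replicate 1 and 109.2 in replicate 3. The region on 2L at 16486377 to 16486636 lay 509 bp from the start of dac, a regulator of leg and eye development, at 176.2 pooled, 62.4 in replicate 1 and 100.4 in replicate 3. Eip75B, which codes for an ecdysone-induced nuclear receptor, was the coding gene to one side of a region on 3L at 17922784 to 17923043. The nearer edge of the Eip75B body, where the gene ends on the reverse strand, lay 28039 bp from the summit of that region. That region had 167.0 pooled, 76.3 in replicate 1 and 85.9 in replicate 3.

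The region on 3R at 23374474 to 23374561, between CG42828 and CG4393, had 243.7 pooled, 135.2 in replicate 1 and 103.4 in replicate 3. On 3L, a region at 6743565 to 6743824 between dikar and velo had 167.6 pooled, 79.1 in replicate 1 and 90.1 in replicate 3. On 2L, a region at 16533419 to 16533502 lay 613 bp from the start of CG5953 and had 165.6 pooled, 85.1 in replicate 1 and 68.1 in replicate 3. All 3 lay near the top of both replicate lists.

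A region on 2R at 9541730 to 9541989 had its summit in a gap of 381 bp between the ends of brp, the gene of a scaffold protein of synaptic active zones, and CG1888, the shortest gap that held any of the 238. It had 136.9 pooled, 74.5 in replicate 1 and 75 in replicate 3. Gustatory receptor genes lay beside 2 of the 15, one on 3R at 21834738 to 21834997 between Gr93a and Gr93b (136.1 pooled, 77.2 in replicate 1, 49.8 in replicate 3) and one on 2R at 11364975 to 11365234 beside Gr47b (133.9 pooled, 90.8 in replicate 1, 57.7 in replicate 3). These genes name positions, and their expression was not measured.

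The 15 strongest regions comprised 7 on 3L, 4 on 2R, 2 on 2L and 2 on 3R. Of them, 14 were among the first 3000 of both replicates. The exception, on 3L at 10776467 to 10776726 between CG43245 and CG12523, had 93.4 (rank 90) in replicate 3 but 15.1 (rank 12704) in replicate 1, and its pooled signal was 137.7. Most regions were 260 bp wide, and the 7 narrower ones, 84 to 123 bp, included 5 of the 6 strongest.

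In the replicate lists, 217 of the 238 summits (91.2%, 95% interval 86.8 to 94.5%) fell in a region of replicate 1 and 229 (96.2%, 92.9 to 98.3%) in one of replicate 3. Both replicates held 209 (87.8%, 83.0 to 91.7%), against a background of 87.6% over the 2505 regions off the X among the first 3000. Of the weaker intergenic regions, both replicates held 15.8% and neither held 20.9%. The replicate lists also hold background besides peaks, so a match is not a called peak in that replicate. The list of regions that passed the authors' irreproducible discovery rate (IDR) procedure held 108 (45.4%, 38.9 to 51.9%), against a background of 49.4%. The procedure is meant to keep regions ranked alike in replicates. The shares in both replicates and in the IDR list lay at the background. Among the 238, the IDR list held every region with a pooled signal of at least 65.3 and none of 65.2 or less. Its 108 were not all ranked alike: one ranked 12704 in replicate 1 and 90 in replicate 3, another 474 and 19058. The IDR share therefore follows pooled signal and does not measure how alike the replicates ranked these regions. The replicate lists come from the reads behind the pooled signal, so these shares describe the rule as much as the regions.

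Ranks in the single replicates were looser. Among the first 3000 regions of each list, 141 (59.2%, 52.7 to 65.5%) of the strong intergenic summits were found in replicate 1 and 179 (75.2%, 69.2 to 80.6%) in replicate 3, whereas the shares were 63.6% and 71.6% for strong regions inside genes and 70.0% and 72.3% for promoter regions. Over the 209 regions with a value in both, the signals of the replicates had a Spearman correlation of 0.301 across regions, against 0.320 inside genes and 0.360 at promoters; regions of 1 list share its depth and are not independent. The summits of the replicates lay a median of 29 bp apart, against 31 bp inside genes, 28 bp at promoters and 43 bp for weaker intergenic regions. Applied to 1 replicate at a time, the same rule found 219 regions in replicate 1 and 292 in replicate 3, with 140 and 179 of the 238 among them and 104 in both.

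**Figure D1:**
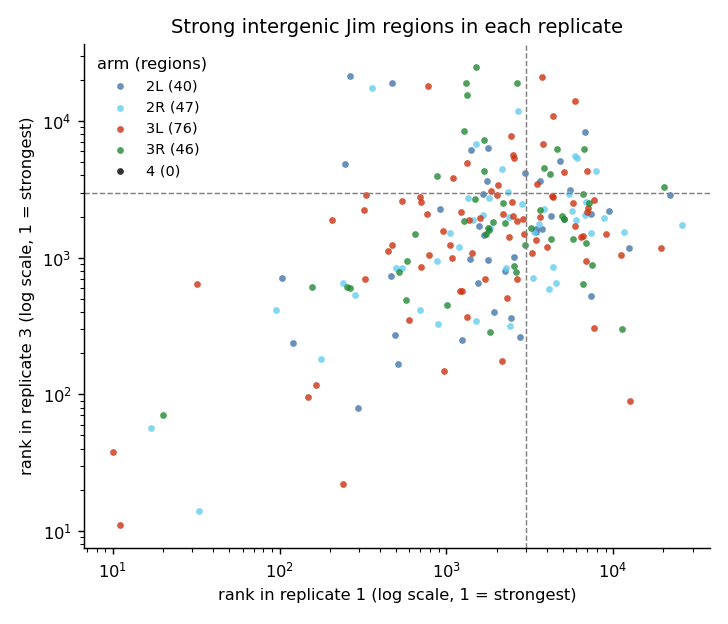
Rank of the strong intergenic regions in replicate 1 (x axis) and replicate 3 (y axis), both on log scales with 1 the strongest, for the 209 regions found in both, coloured by chromosome arm with the number of regions in brackets. The dashed lines mark rank 3000; the strongest regions lie at the lower left in both replicates, while many others pass the line in 1 replicate only.

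A single region was found in neither replicate list. It lay on 3L at 22835726 to 22835985, 662 bp from the start of jim itself, the gene whose product was tagged, and had a pooled signal of 53.8. It was singled out after its value was seen. The labels do not state how many copies of the jim locus the line carries, and the part of copy number in this value was not tested.

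The rule set a least distance to starts, and none to gene bodies. The median distance to the nearest transcript start was 2380 bp (quartiles 1035 and 4849 bp), 57 (23.9%) lay within 1000 bp and 26 (10.9%) beyond 10000 bp. For 71 (29.8%, 24.1 to 36.1%) the nearest start belonged to a noncoding gene, against 15.6% of strong regions inside genes, 8.22% of promoter regions and 32.9% of weaker intergenic regions. The coding genes to the sides pointed away from each other around 92 regions (38.7%), in the same direction around 96 (40.3%) and towards each other around 50 (21.0%). Summits 500 to 1000 bp from a start were found in both replicates in 45 of 57 cases (78.9%), those 1000 to 5000 bp away in 110 of 122 (90.2%) and those farther away in 54 of 59 (91.5%). Distance from a start thus did not come with a lower share in both replicates.

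The 5 regions farthest from any start all lay on 3L. Those between NijA, which codes for the cell surface protein Ninjurin A, and CG43245 lay 34353, 33346, 32557 and 28817 bp from the nearest start, with pooled signals of 60.4, 72.8, 84.4 and 58.7. The fifth, at 1128675 to 1128934 between bab1 and bab2, paired transcription factor genes of leg and abdomen patterning, lay 27716 bp from a start and had 56.4 pooled, 19.7 in replicate 1 and 27.9 in replicate 3.

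The gap between gene bodies that held a strong intergenic region had a median length of 8916 bp (95% interval 7783 to 10530 bp), against 12437 bp for weaker intergenic regions. The shortest gap with a strong region was 381 bp long and the longest 204994 bp. In both medians a gap entered once for each of its regions. The 238 strong regions lay in 178 gaps and are not independent, so the interval may be too narrow. Per megabase of sequence that the position rule allowed, short gaps held the most: 19.9 strong regions per Mb in gaps up to 5 kb, 10.8 in gaps of 5 to 10 kb, 8.54 in gaps of 10 to 20 kb, 5.46 in gaps of 20 to 50 kb and 1.66 in longer gaps. Weaker intergenic regions had densities of 261, 235, 224, 174 and 34.8 per Mb in the same order of gap lengths. Both densities fell with gap length over all 5 classes. Unassembled bases and repeats were not taken out of the megabases, here or for the arms below, and their part in the densities was not tested.

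The regions also lay close to one another. Another of the 3000 strongest regions lay within 5 kb of 131 (55%, 48.5 to 61.5%), against 61.5% of strong regions inside genes and 46.1% of promoter regions, and for 95 (39.9%) another strong intergenic region did. In all, 178 gaps held the 238 regions: 140 held 1, 26 held 2, 6 held 3 and 6 held at least 4. Those last 6 gaps together held 28 regions. Summits within the labelled size range of the chromatin were counted as separate regions in these shares and counts, such as 2 beside CG43389 on 3L that lay 200 bp apart. Whether such neighbours belong to 1 enriched stretch was not tested.

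The gap with the most, 7, was that between NijA and CG43245 on 3L, from 10696878 to 10771924 (75047 bp). The pooled signals ran from 50.9 to 84.4 over 29263 bp, and 29 weaker intergenic regions lay in the same gap. Of the 7, 6 were among the first 3000 of replicate 1, 5 of replicate 3 and 4 of both. The strongest of them, at 10739238 to 10739497, had 84.4 pooled, 48.2 in replicate 1 and 61.2 in replicate 3.

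The gap beside hid, a cell death gene that the steroid hormone ecdysone induces in dying larval tissue, held 5 regions within 4143 bp, in a gap on 3L from 18185642 to 18196171. Their pooled signals were 48.1, 67.0, 75.3, 55.2 and 70.1 in order of position, with 21.9, 13.0, 44.4, 18.4 and 18.5 in replicate 1 and 27.0, 38.2, 30.2, 29.8 and 42.0 in replicate 3. All 5 were among the first 3000 of replicate 3, and 1 of 5 was among the first 3000 of replicate 1. As a group, the 5 were thus among the first 3000 in replicate 3 only. The region at 75.3 pooled ranked higher in replicate 1 (767) than in replicate 3 (2095). Which replicate gave more of the pooled signal was not tested.

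A gap on 3L from 8693192 to 8718948, between lncRNA:CR44526 and SrpRbeta, held 4 regions, and the coding gene to its left was hry, the pair-rule repressor gene hairy. Their pooled signals were 90.0, 62.9, 94.8 and 218.7, with 45.6, 22.6, 36.1 and 67.1 in replicate 1 and 43.6, 38.1, 60.6 and 149.4 in replicate 3. The last, at 8702663 to 8702765, was the strongest in the pooled list and in both replicates, and it lay 23451 bp from the body of hry. With 4 more regions in neighbouring gaps, hry flanked 8 of the 238.

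Of the other 3 gaps with 4 regions, one reached from Qsox2 to Eip93F on 3R (21915547 to 21949113); Eip93F codes for the ecdysone-induced factor E93, which directs adult development at metamorphosis. Its regions had pooled signals of 118.0, 48.9, 74.8 and 53.5, with 65.6, 34.2, 18.7 and 32.9 in replicate 1 and 49.8, 13.3, 49.2 and 19.7 in replicate 3. Only the first of the 4 was among the first 3000 of both replicates. A gap on 3L from 11365898 to 11382807, between lncRNA:CR45036 and lncRNA:CR42755, had 58.5, 121.5, 48.7 and 75.9 pooled, and 3 of these were among the first 3000 of both replicates. A gap on 2L from 2197913 to 2203720, between COX7AL2, a gene of the cytochrome oxidase family, and CG31668, had 50.1, 89.1, 84.7 and 100 pooled, and 2 were among the first 3000 of both.

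**Figure D2:**
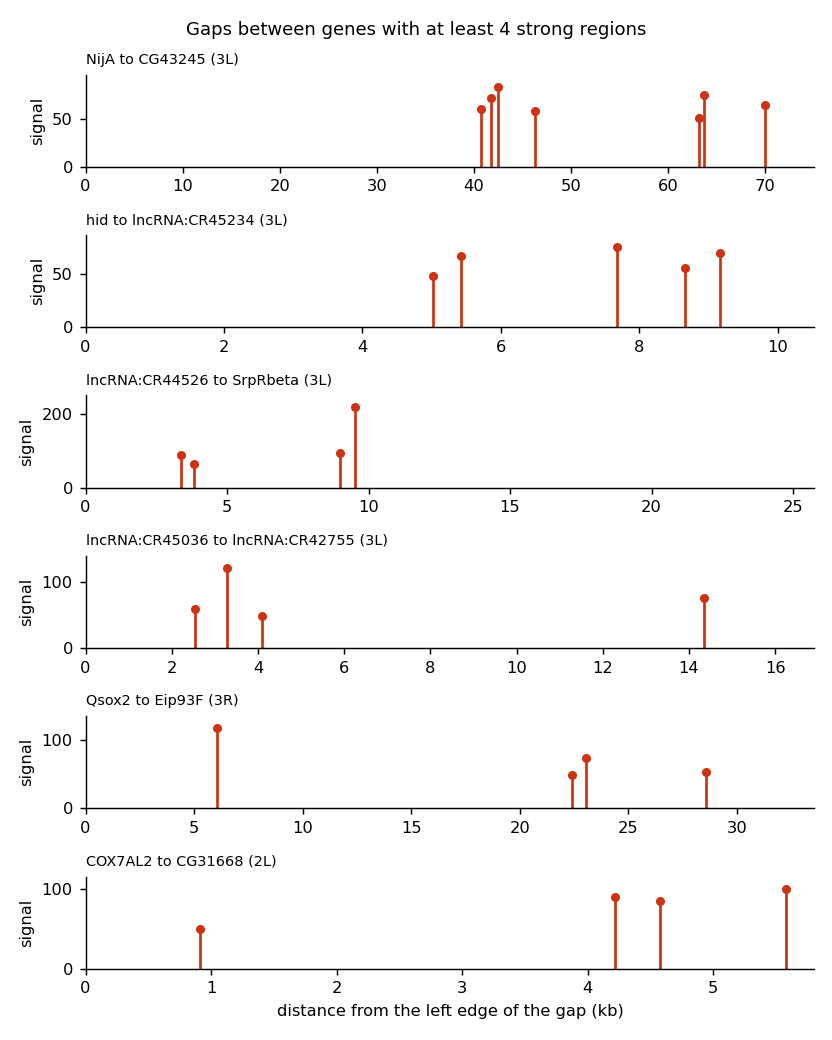
Position (x axis, kb from the left edge of the gap between gene bodies) and pooled signal (y axis) of the strong intergenic regions in the 6 gaps with at least 4 of them; each stem is 1 region. The 7 regions between NijA and CG43245 form a group near the middle of the gap and another towards CG43245, and the highest stem, 218.7, is that in the gap between lncRNA:CR44526 and SrpRbeta.

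Arm 3L held 92 of the strong intergenic regions (38.7%, 32.4 to 45.2%), against 25% (22.2 to 28.1%) of strong regions inside genes, 25% (22.8 to 27.3%) of promoter regions and 28.6% (27.4 to 29.8%) of weaker intergenic regions; these intervals did not overlap while every region was counted. Arms 2R and 3R held 50 each, 2L held 45 and chromosome 4 held 1. Per megabase of sequence that the position rule allowed, 3L held 10.1 (8.17 to 12.4), 2L 6.70 (4.89 to 8.97), 2R 6.71 (4.98 to 8.85) and 3R 6.52 (4.84 to 8.59), and the interval of 3L overlapped those of the 3 others. By the rule in replicate 1 alone the share on 3L was 37.0%, and in replicate 3 alone 37.3%. Regions in 1 gap share a neighbourhood and are not independent, and 4 of the 6 gaps with at least 4 regions, holding 20 regions, were on 3L. With each gap counted once, 56 of 178 gaps with a strong intergenic region (31.5%, 24.7 to 38.8%) lay on 3L, against 523 of 2088 gaps with a weaker one (25%, 23.2 to 27.0%), and these intervals overlapped. Median signal was 63.8 on 3L and 60 on the other arms.

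**Figure D3:**
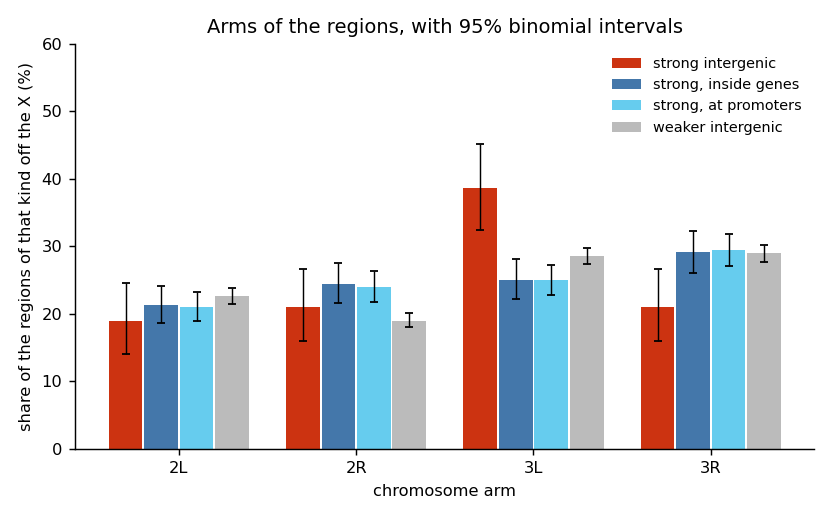
Share (y axis, percent) of the strong intergenic regions (red), strong regions inside genes (blue), promoter regions (light blue) and weaker intergenic regions (grey), all off the X, on each of the 4 large chromosome arms (x axis), with 95% exact binomial intervals; chromosome 4 is not drawn. On 3L the red bar stands at 38.7%, above the other bars, with every region counted.

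An A tract, 8 A in a row on either strand, lay within 50 bp of the summit of 50 of the strong intergenic regions (21.0%, 16.0 to 26.7%), against 31 of 476 windows of the same size 1000 bp to each side of the same summits (6.51%, 4.47 to 9.12%). The share was 19.9% in strong regions inside genes, 9.84% (8.34 to 11.5%) at promoters and 5.86% (5.23 to 6.53%) in weaker intergenic regions. The motif GAGAG, the core of the GA repeats that GAGA factor binds, searched on both strands, lay at 57 summits (23.9%, 18.7 to 29.9%), against 10.1% (7.53 to 13.1%) of the flanking windows, 25.6% inside genes, 21.0% at promoters and 12.3% (11.4 to 13.2%) of weaker intergenic regions. Both motifs were thus found at summits more often than in the flanks, with intervals that did not overlap, and about as often as in strong regions inside genes. A match of one cannot overlap a match of the other, and 12 summits (5.04%) held both.

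Longer runs kept the same order. A run of at least 6 A on either strand was found at 43.7% of summits and in 20% of flanking windows, at least 10 at 13.4% and in 2.73%, and at least 12 at 7.14% and in 1.68%. In bins of 50 bp, the A tract was found in 11.8% and 9.66% of regions in the bins before and after the summit, and in at most 7.14% in any other bin. GAGAG spread more widely, with 10.5 to 15.5% of regions from 200 bp before to 150 bp after the summit. Mean G+C content was 44.9% and 44.5% in the bins before and after the summit and had its lowest value, 38.0%, 300 to 350 bp before it. G+C content thus moved with the distance from the summit, and its part in the motif shares was not tested.

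**Figure D4:**
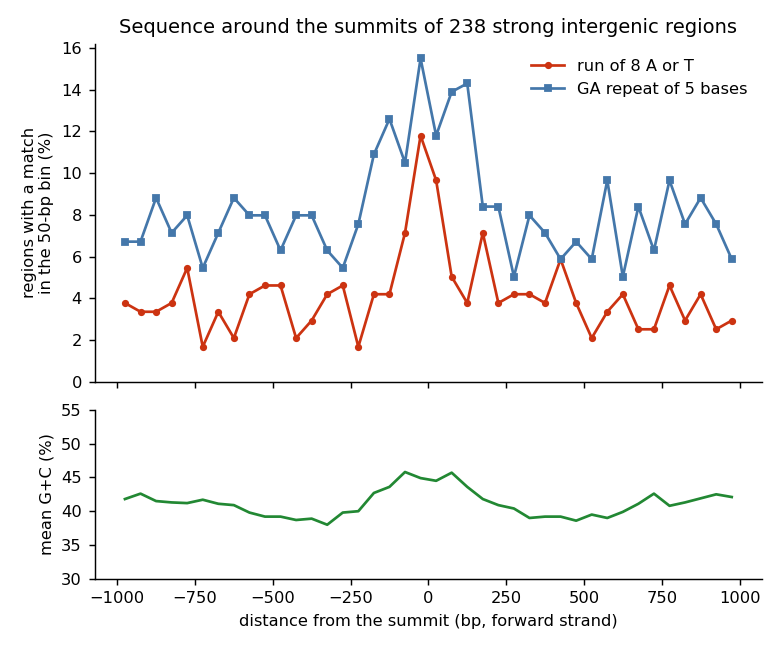
Upper panel, share of the 238 strong intergenic regions (y axis, percent) with a match that starts in each bin of 50 bp, for the A tract (red circles) and GAGAG (blue squares), against distance from the summit (x axis, bp); lower panel, mean G+C content in the same bins. The A tract has its highest bin, 11.8%, just before the summit, and GAGAG is raised over a wider stretch on both sides.

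Regions with an A tract at the summit had a median pooled signal of 69.3, against 58.8 without, and those with GAGAG 76.0, against 58.5 without. At 500 to 1000 bp from a start, 17.5% of regions had an A tract and 31.6% GAGAG; at 1000 to 5000 bp the shares were 21.3% and 23.0%, and beyond that 23.7% and 18.6%. The counting intervals of the 3 classes overlapped for both motifs. On 3L 25% had an A tract and 19.6% GAGAG, while on 2L the shares were 15.6% and 31.1%, again with intervals that overlapped.

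Of the 24 motifs searched, all on both strands, some were rarer at summits than beside them and others were not. Those given here, of both kinds, were picked after their shares were seen. TAATTA, a core that many homeodomain factors bind, was found at 2 summits (0.84%, 0.102 to 3.00%), against 5.67% (3.77 to 8.15%) of the flanking windows and 7.13% of weaker intergenic regions. TGCATA, part of the sequence bound by the insulator protein Su(Hw), was found at 9 (3.78%, 1.74 to 7.06%), against 9.66% (7.16 to 12.7%) of the flanking windows. ATATATAT was found at none of the 238 (95% upper limit 1.54%), against 2.52% (1.31 to 4.36%) of the flanking windows, and these intervals overlapped. TATCGATA, the DNA replication-related element of many promoters, was found at 1 summit (0.42%), against 0.21% of the flanking windows and 3.54% of promoter regions. ACATTCC, a site of Scalloped, the DNA-binding partner of the Hippo pathway, was found at 5 summits (2.10%, 0.686 to 4.83%), against 0.21% (0.00532 to 1.16%) of the flanking windows, again with intervals that overlapped. Median G+C content was 44.6% in the summit windows and 43.1% in the flanking windows.

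Copies of sequence were few. In 236 regions (99.2%) every word of 36 bases occurred once in the genome, the largest share of repeated words in a region was 27.6%, and 1 summit (0.42%) lay in an annotated transposable element, against 1.80% of weaker intergenic regions.

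The protein-coding genes nearest on each side numbered 306, which is 2.60% (2.32 to 2.91%) of the 11749 coding genes off the X. Among the 306, 66 (21.6%, 17.1 to 26.6%) also had a strong region at a promoter, against 10.5% of genes that flank weaker intergenic regions and 13.3% of all coding genes off the X. A strong region inside the gene was found for 12.7% (9.22 to 17.0%), against 6.24% of genes beside weaker intergenic regions and 4.32% of all. For 114 of the 238 regions (47.9%), at least 1 flanking gene had a strong promoter region. Gap length differs between genes, and its part in these shares was not tested.

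The genes were also counted by 10 lists, each a partial selection of its class, so a count holds for the listed genes and not for the class. Over all coding genes off the X, 2.60% flanked a strong intergenic region and 2804 (23.9%) a weaker one. The list of T-box, forkhead, zinc finger and bHLH patterning factors had 12 of 54 genes (22.2%, 12 to 35.6%) beside a strong intergenic region and 79.6% beside a weaker one. Besides hry, with 8 regions and a top pooled signal of 218.7, its strongest entries were bowl and rn, both zinc finger genes of leg development. The region 541 bp from bowl had 132.9 pooled, 88.3 in replicate 1 and 46.9 in replicate 3. That 1145 bp from rn had 108.8 pooled, 48.9 in replicate 1 and 53.9 in replicate 3. The 12 genes also included jim, whose only strong intergenic region was the one found in neither replicate list. Strong regions of the other kinds, at a promoter and inside the gene, were also found for jim. Among the 12 were foxo, which is on the growth list too, and slp1 and slp2, which share 1 region. The list of homeodomain genes had 3 of 56 (5.36%, 1.12 to 14.9%) beside a strong region, Dll at 76.0 pooled, inv at 59.5 and ems at 59.2, and 82.1% beside a weaker one. Other homeodomain genes beside strong regions are not on that list, among them dve at 267.4, Gsc at 69.3, pdm3 at 61.1 and zfh2 at 50.0.

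Signalling ligands and receptors had 10 of 50 genes (20%, 10 to 33.7%) beside a strong region, and 56.0% beside a weaker one. When each region was given only the gene of its nearest coding start, this list had 6 genes and the homeodomain list 1. All lists together had 26, against 37 by flanks. Over all coding genes off the X the count fell too, to 180, against 306 by flanks. One region lay between pyr and ths, the genes of the FGF8-like ligands, with 101.9 pooled, 46.0 in replicate 1 and 57.7 in replicate 3. Its summit was 1405 bp past the end of pyr and 15487 bp from the nearest start, that of pyr. Another region lay between the Wnt ligand genes Wnt4 and wg, 4480 bp from the start of Wnt4. It had 71.2 pooled, 18.1 in replicate 1 and 52.6 in replicate 3. Neighbouring genes of a list count a shared region once each, so these counts are not independent.

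The ecdysone response list had 5 of 29 genes (17.2%, 5.85 to 35.8%) beside a strong region, led by Eip75B with 3 regions (top 167.0), Eip93F with 4 (top 118.0) and hid with 5 (top 75.3). The growth control and Hippo list had 6 of 29 (20.7%, 7.99 to 39.7%), led by tara, a nuclear cofactor gene, with 4 regions (top 77.2), the insulin-responsive factor gene foxo with 3 (top 59.0) and the atypical cadherin gene ds with 1 (58.5). In these lists 58.6% and 44.8% of the genes flanked a weaker intergenic region. The list of axon guidance and cell surface genes had 1 of 63 (1.59%), kek1, at 68.9, and 79.4% beside a weaker region. The guidance receptor gene robo2, beside a region of 52.5, was counted under signalling, and comm, at 48.6, was on no list. The list of immune and stress genes had 1 of 43 (2.33%), kay, the Fos gene, at 63.4, and 11.6% beside a weaker region; BomBc3, at 48.9, was on no list. No strong intergenic region flanked any of the 46 cuticle and chitin genes, 16 glue and larval serum genes or 52 ribosomal protein genes listed, with 95% upper limits of 7.71%, 20.6% and 6.85%. Weaker regions flanked 26.1%, 25% and 21.2% of these lists. The cuticle protein gene Cpr72Ea, beside a strong region of 49.5, was on no list. The genes said to be off the lists were picked after their values were seen.

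**Figure D5:**
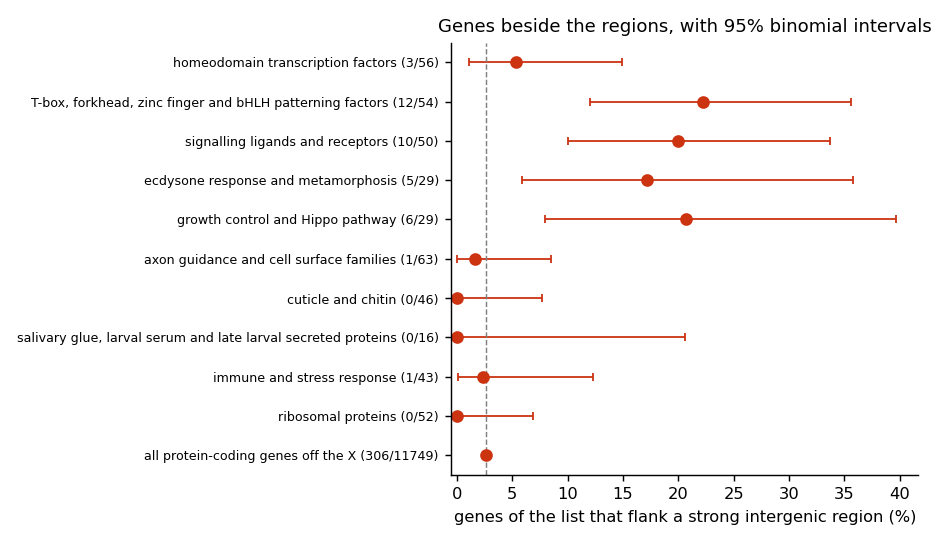
Share of the genes of each list (x axis, percent) that flank a strong intergenic region, with 95% exact binomial intervals and, in brackets, the number that do and the number of genes off the X; the bottom row and the dashed line give all protein-coding genes off the X, 2.60%. The patterning, signalling, ecdysone and growth lists lie at 17.2 to 22.2%, while the axon guidance list lies at 1.59%.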

How the data were processed

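Both replicates and the pooled reads had lists of 30000 regions on the dm6 build, labelled as peaks and background for input to IDR. In the deposited lists the authors gave each region a signal value and the offset of its summit, here used as a position (a value of another kind); the authors also deposited an IDR list. Not given in the sources used here were the aligner, the peak caller, the IDR threshold and the read depth. The dm3 lists and the control named in the labels were not used here. Regions were sorted by signal and placed on the Ensembl BDGP6 annotation without transposable elements and on the RefSeq Release 6 genome, with Python 3.11.15, numpy 2.4.6, pandas 2.3.3 and scipy 1.17.1; the rule was checked on simulated data. Intervals are exact (Clopper-Pearson for shares, Poisson for densities, order statistics for the median), at 95%, with regions or genes as the unit: they cover counting error only, not the spread between animals, and no test was run. Flanking windows can fall in genes.

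Members, motifs and lists were chosen with earlier results of these data known. The text names the 15 strongest and 5 farthest regions, 3 on each side of the rank limit, gaps with at least 4 regions, and at most 3 genes a list. Of the 15, 1 is not reported here. Of 517 list entries, 9 had no match and 63 were on the X. Alternatives changed the rank limit, distances, windows, overlaps, annotation and replicates.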

Additional observations from a re-analysis of the deposited data

How the results depend on the processing

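The number of strong intergenic regions depended on the rank limit: 108 with as many regions as the IDR list, 141 with the first 2000 and 604 with the first 6000; it was 292 without replicate 1 and 219 without replicate 3. In the same order, the share in both replicates was 92.6, 92.9 and 73.7%, and that in the IDR list 100, 76.6 and 17.9%. Any shared base gave 95.8% in both replicates, and the first 3000 of each replicate 44.1%. The A tract share was 14.3% within 25 bp and 30.3% within 100 bp; that of GAGAG was 13.0% and 38.2%, and 35.2, 30.5 and 18.2% under the rank limits above. With coding genes as bounds the median gap was 15852 bp, and another strong region lay within 2 kb of 38.7% and within 10 kb of 63.9%. An alternative added after seeing the data, each gap counted once, gave 31.5% on 3L. With the nearest coding start, 26 listed genes were counted in place of 37, and 180 of all coding genes off the X in place of 306. The cause was not tested. Of 164 settings of the other motifs and single lists, 142 stayed within the 95% interval (motifs) or within 1.5 times the count (lists). No paired analysis was possible because the study has 1 group. Read depth is not known, so no limit from depth can be given.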
